A study of Mus musculus with 12 samples.

Results

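Expression of 8 genes was followed through the neuronal differentiation of P19 cells, a line of mouse embryonal carcinoma cells. The genes encode the secreted growth factors midkine (Mdk) and pleiotrophin (Ptn), 3 fatty acid binding proteins (Fabp3, Fabp5 and Fabp7), apolipoprotein E (Apoe), the glutamate transporter GLAST (Slc1a3) and the acyl-CoA binding protein (Dbi). The genes were taken by name from the direct RNA reads that passed the authors' poly(A) quality tag and lay on mRNA, and they are 8 of 14042 genes with such a read. They held 18939 of 4274320 kept reads, or 0.443%. Wild-type cells were sampled before differentiation (D0) and after 2, 4 and 6 days (D2, D4 and D6) in NDiff 227 medium with 500 nM retinoic acid, with 3 replicates per day and 12 libraries in all. D0 cells were grown in serum without retinoic acid, so the change of medium and the retinoic acid cannot be told apart. Nanopore sequencing was done on RNA and not on cDNA, so 1 read counts 1 molecule whatever its length and also reports its poly(A) tail. Kept reads per library ran from 120326 to 613756, with D2 the shallowest day, and each of the 13 sequencing runs held 1 day, so day and run cannot be told apart. All cells came from 1 line, and the libraries hold bulk RNA, in which fewer cells of a type and less RNA per cell cannot be told apart.

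Midkine and pleiotrophin are heparin-binding growth factors of the same small family. They bind cell surface proteoglycans and receptors such as the phosphatase Ptprz1 and the kinase Alk, and midkine was identified as a gene that retinoic acid induces in embryonal carcinoma cells. Radial glia are the elongated progenitors of the developing brain, and Fabp7 (brain lipid binding protein) and Slc1a3 are widely used as their markers. The remaining genes are used more broadly. Fabp3 is the form known from heart, Fabp5 that from epidermis, Apoe carries lipids between cells, and Dbi is a carrier of acyl-CoA esters from which peptides acting on GABA receptors are cut. The levels of the 8 genes did not follow a shared course. Fabp7 was the gene nearly missing at D0 and highest at D6, whereas Apoe, Slc1a3, Fabp3 and Fabp5 were higher in undifferentiated cells than at D6.

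The reads end where the poly(A) tail begins, so the 3′ ends in use can be read from the files. Reads were grouped into ends by a cluster number in the deposited table, which the sources used here do not describe and which was read from its name and values. The 30 bases before the commonest read end of the leading transcript of each gene are shown, where most of its tails start. Tail lengths were taken over all reads of a gene, also those at other ends. Of the Mdk reads, 742 lay on Mdk-203, which is annotated to end upstream of the window shown, at 91929966. The poly(A) signal hexamers AATAAA and ATTAAA are in capitals. The windows were taken from the GENCODE M21 transcripts (mm10, written as DNA, 5′ to 3′ on the transcript's strand) and searched on that strand only.
Mdk, chr2:91929831-91929860, minus strand: taagaaatgAATAAAATAAActcacttttt
Ptn, chr6:36714929-36714958, minus strand: aggaaAATAAAacaagtgatgctgaattaa
Ptn, upstream end, chr6:36715179-36715208, minus strand: acactaAATAAAgcagcAATAAAatataaa
Fabp3, chr4:130315430-130315459, plus strand: tccaaggtcAATAAAgcagaaccaaggcca
Fabp5, chr3:10016306-10016335, plus strand: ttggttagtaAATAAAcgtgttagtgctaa
Fabp5, downstream end, chr3:10016578-10016607, plus strand: aaattttatagAATAAAgggagatccaagc
Fabp7, chr10:57788420-57788449, plus strand: caaaccaaattgaAATAAAaaatacacaca
Apoe, chr7:19696270-19696299, minus strand: cccttgcttAATAAAgattctccgagcaca
Slc1a3, chr15:8634124-8634153, minus strand: ttcAATAAAgaaaaaatagttttacattaa
Dbi, chr1:120113295-120113324, minus strand: acctacaatcaATTAAAagtacatttgtta
All of these windows lie in the 3′ UTR of the annotated transcript. A further Mdk end, 79 nt before the annotated end, held 44 reads that were spread out and is not shown, and its window held neither hexamer. Each window shown held a hexamer, ATTAAA in Dbi and AATAAA in the others, and in Mdk 2 copies overlapped by 1 base. A hexamer in the same window was found in 81.4% of the leading transcripts of 8352 genes, so its presence is the common case.

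Most Fabp5 reads stopped well before the annotated end. Of 5788 reads on Fabp5-201 (ENSMUST00000029046.8, 987 nt), 97.8% ended around position 715, which is 272 nt upstream of the annotated end and is the annotated end of the retained-intron transcript Fabp5-202. The downstream end held 99 reads, or 1.71% (95% Wilson interval 1.32% to 2.19% at D0 and 1.35% to 3.01% at D6). These intervals overlap, and they cover counting error only, as do all intervals on counts given here. Apoe-206 (ENSMUST00000174064.8, 1408 nt) also ended early, with its commonest read end 161 nt before the annotated end. Ptn-201 (ENSMUST00000101534.4, 1614 nt) had reads at both the annotated end (111 of 136) and an end about 250 nt upstream (23 of 136). At the upstream end lay 9 of the 58 Ptn reads of D0, 9 of 37 from D2, 2 of 14 from D4 and 3 of 27 from D6, so the share could not be followed by day at this depth. The other leading transcripts ended within 15 nt of their annotation.

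The part of a transcript that reads covered differed between genes. A start within the first 100 nt of the annotation was seen in 96.8% of the Mdk-202 reads (ENSMUST00000069423.12, 773 nt), 93.2% of Dbi-201 (ENSMUST00000027634.12, 569 nt), 87.8% of Fabp5-201 and 79.1% of Fabp7-201 (ENSMUST00000020024.11, 804 nt). For Ptn-201 it was 29.4%, for Apoe-206 16.9% and for Fabp3-201 (ENSMUST00000070532.7, 823 nt) 9.64%. The median read of these began at position 210.5 of Ptn-201, 147 of Apoe-206 and 156.5 of Fabp3-201. These positions lie in annotated 5′ UTRs of 329, 201 and 183 nt. For Slc1a3-201 (ENSMUST00000005493.13, 4163 nt) the share was 0%, and the median read began at position 3036. Counts are of molecules and do not depend on this coverage, but nothing can be said about the 5′ exons of Slc1a3.

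Mdk was the most abundant of the 8 genes at D2, D4 and D6, and it rose early and then fell back. The gene lies at 91929805 to 91932297 on chromosome 2, minus strand. It was measured at 597, 885 and 760 CPM (counts of reads scaled to the library's total times a trimmed-mean factor) in the D0 libraries. At D2 the libraries gave 4586, 4025 and 4487 CPM and at D4 4019, 4676 and 3749 CPM. At D6 they gave 1874, 1493 and 1654 CPM. Every D2 and D4 library lay above every D6 library, and every D6 library above every D0 library. The rise was 5.80-fold at D2 (log2 2.54 ± 0.11 SE, limma-voom adjusted p = 3.94e-29), 5.56-fold at D4 and 2.21-fold at D6 (log2 1.14 ± 0.11 SE, limma-voom adjusted p = 3.87e-13). From D4 to D6 Mdk fell by 1.33 on the log2 scale (limma-voom adjusted p = 1.46e-18), whereas D2 and D4 differed by -0.06 (95% interval -0.23 to 0.11).

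Mdk reads lay on 4 transcripts, which have the same coding length and differ in their untranslated ends. Mdk-202 held 62.5% of the reads, Mdk-204 (ENSMUST00000111309.7) 25.8%, Mdk-203 (ENSMUST00000090602.5) 7.46% and Mdk-201 (ENSMUST00000028672.12) 4.24%. The share of Mdk-202 was 63.6% ± 5.77 at D0 and 61.5% ± 3.71 at D6 (SD, n = 3), and that of Mdk-204 27.5% ± 6.11 and 27.2% ± 3.67. Over the 6 transcripts compared (4 of Mdk and 2 of Fabp5) the two-sided exact permutation p was 0.20 or above, adjusted p = 0.60 or above, in a design whose smallest p is 0.10. The split is uncertain, since these transcripts share stretches of 548 to 689 nt and 88.1% of the Mdk-204 reads had a mapping quality under 10. Reads with a mapping quality of at least 10 made up 61.9% of those on the gene, and the calls of Mdk at D2, D4 and D6 held with these alone.

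Ptn was sparse and took another course. It had 136 reads in all, at 45.0, 27.8 and 50.4 CPM in the D0 libraries and 54.9, 72.2 and 63.7 CPM at D2. At D4 the libraries gave 16.3, 16.4 and 6.96 CPM, and at D6 33.4, 18.9 and 24.4 CPM. All D4 libraries lay below all libraries of the other days, and the D0 and D6 libraries overlapped. Ptn was lower at D4 than at D2 by a log2 of -2.36 ± 0.45 (SE, limma-voom adjusted p = 0.000214) and lower than at D0 by -1.61 ± 0.42 (limma-voom adjusted p = 0.00262). The D4 difference from D0 was no longer called without D4 replicate 3 (log2 -1.14, limma-voom adjusted p = 0.0677). Nor was it called after thinning every library to the smallest (log2 -1.05, limma-voom adjusted p = 0.515). Neither D2 (log2 0.76, 95% interval 0.13 to 1.38, limma-voom adjusted p = 0.117) nor D6 (log2 -0.69, 95% interval -1.36 to -0.01, limma-voom adjusted p = 0.102) passed against D0, though D6 did without D0 replicate 2 (log2 -0.98, limma-voom adjusted p = 0.0254).

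**Figure D1:**
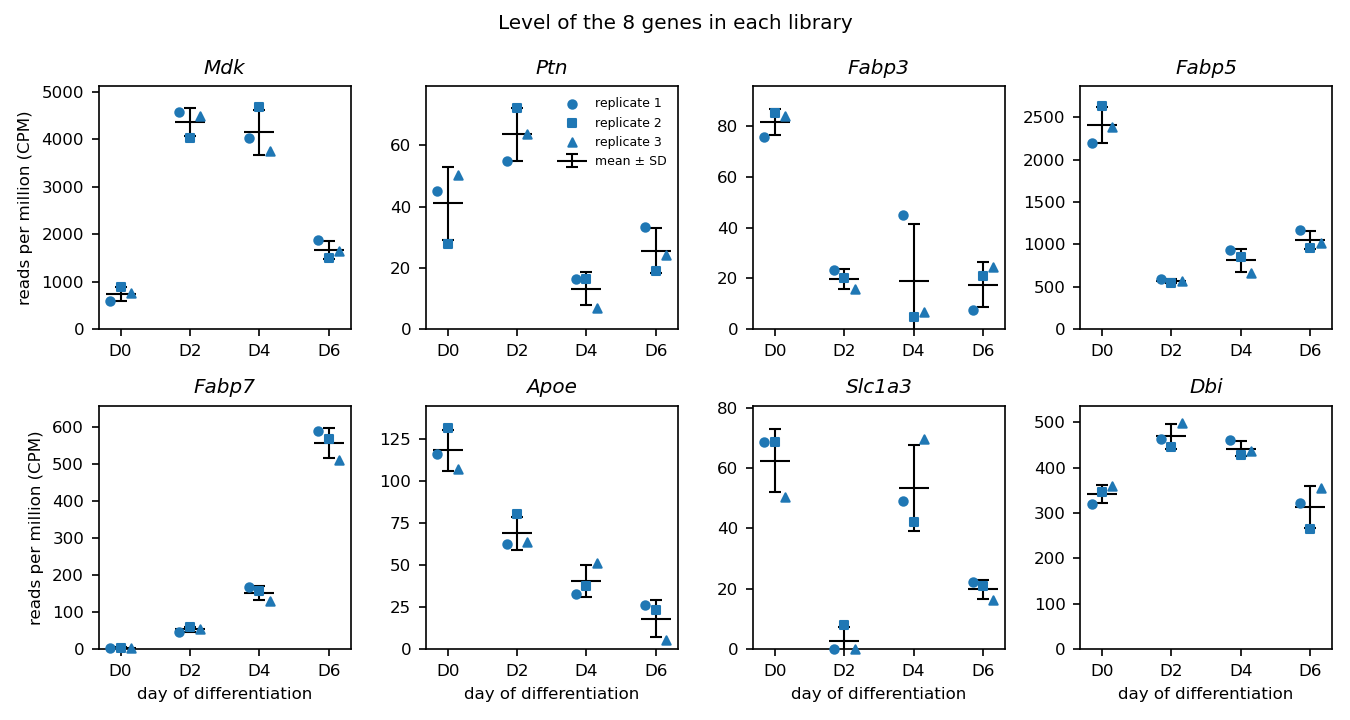
Level of each gene in CPM (linear axis from 0, scaled separately per gene) in the 3 libraries of each day, marked by replicate, with the mean and SD of the 3. Mdk is high at D2 and D4, Fabp7 climbs to between 512 and 590 CPM at D6, and Slc1a3 is at 0 in 2 of the 3 D2 libraries.

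The fatty acid binding proteins were exchanged in part. Fabp7 (chromosome 10, 57784881 to 57788450, plus strand) was at 2.37, 3.70 and 4.20 CPM at D0, from 1, 2 and 2 reads. It stood at 47.0, 60.2 and 53.1 CPM at D2 and at 167, 157 and 130 CPM at D4. At D6 it reached 590, 568 and 512 CPM. No library of a later day overlapped an earlier day. Since the D0 libraries held 5 reads together, the change is given as a ratio of pooled reads with its counting interval, which was 15.8-fold at D2 (95% interval 6.08 to 52.0), 42.8-fold at D4 (17.96 to 133) and 159.6-fold at D6 (68.0 to 493). The test called Fabp7 at each day against D0, although the D2 call was lost after thinning every library to the smallest (log2 2.50 against 3.69, limma-voom adjusted p = 0.0552). It also called each step, with 2.61-fold from D2 to D4 (limma-voom adjusted p = 0.000748) and 3.71-fold from D4 to D6 (limma-voom adjusted p = 1.23e-15).

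Fabp5 (chromosome 3, 10012548 to 10016607, plus strand) went the other way at first and then recovered in part. It was the most abundant of the 8 genes at D0, at 2202, 2629 and 2391 CPM, and dropped to 588, 546 and 568 CPM at D2. The D4 libraries gave 930, 851 and 663 CPM and the D6 libraries 1173, 963 and 1015 CPM. All later libraries lay below all D0 libraries. Against D0 the level was 4.26-fold lower at D2 (limma-voom adjusted p = 2.78e-22), 3.03-fold lower at D4 and 2.33-fold lower at D6 (limma-voom adjusted p = 4.63e-17). The partial recovery rested on narrow calls. The step from D2 to D4 was a log2 of 0.49 ± 0.14 (limma-voom adjusted p = 0.0239) and that from D4 to D6 0.38 ± 0.11 (limma-voom adjusted p = 0.0240). The call of the step from D2 to D4 was lost without D2 replicate 2, D2 replicate 3, D4 replicate 1 or D4 replicate 2, and that from D4 to D6 without D6 replicate 1, D6 replicate 3 or D4 replicate 3 (log2 0.18 without the latter). The former call was also lost with scaling by the median of ratios (limma-voom adjusted p = 0.0526) and with thinning to the smallest library (limma-voom adjusted p = 0.223). The latter was lost without voom weights (limma adjusted p = 0.0806), with transcripts in place of genes (limma-voom adjusted p = 0.0673) and with thinning (limma-voom adjusted p = 0.145).

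Fabp3 (chromosome 4, 130308595 to 130315463, plus strand) was lower on every later day. The D0 libraries gave 75.8, 85.2 and 84.0 CPM and the D2 libraries 23.5, 20.1 and 15.9 CPM. At D4 the values were 44.9, 4.69 and 6.96 CPM, so that replicate 1 stood above the other two, and at D6 they were 7.42, 20.97 and 24.4 CPM. No later library reached the D0 range. The log2 change was -1.92 at D2, -2.93 at D4 and -2.15 ± 0.38 (SE) at D6 (limma-voom adjusted p = 0.00169, 1.37e-07 and 4.92e-06), and the D4 value became -3.58 without D4 replicate 1. The D2 call was lost after thinning (log2 -1.36, limma-voom adjusted p = 0.136).

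The 3 genes summed to 2492 ± 219 CPM at D0 (SD, n = 3). The sum was 641 ± 16.5 CPM by D2, 985 ± 173 by D4 and 1624 ± 126 by D6. Their make-up shifted more steadily than the sum. Fabp7 made up 0.137% ± 0.0327 of their reads at D0, and its part was 8.36% ± 1.24 by D2, 15.5% ± 0.796 by D4 and 34.3% ± 2.01 by D6. Fabp5 fell from 96.6% ± 0.142 at D0 to 88.5% ± 1.18, 82.8% ± 1.30 and 64.6% ± 2.24 on those days, and remained the larger part in every library. Fabp3 was at 3.28% ± 0.131 at D0 and 1.11% ± 0.611 at D6. Each day's Fabp5 and Fabp7 shares lay apart from those of D0 with the smallest p that 3 against 3 libraries allow (two-sided exact permutation p = 0.10, adjusted p = 0.129 over 9 tests), which does not reach 0.05. Fabp1, Fabp2, Fabp6, Fabp9, Fabp12 and Pmp2 had no kept read, and Fabp4 had 6.

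**Figure D2:**
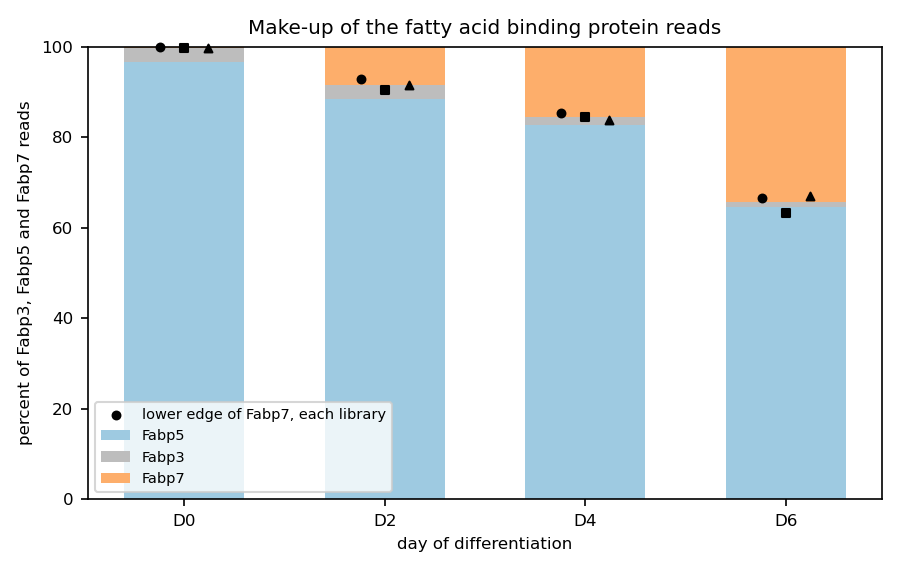
Mean percent of the Fabp3, Fabp5 and Fabp7 reads that fell on each gene per day (stacked bars, n = 3 libraries), with a mark for where Fabp7 begins in each library. The Fabp7 part grows from 0.137% at D0 to 34.3% at D6, and the libraries of a day lie close together.

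Apoe (chromosome 7, 19696109 to 19699188, minus strand) was lower at D4 and D6 than at D0. It was at 116, 132 and 107 CPM at D0 and at 62.7, 80.3 and 63.7 CPM at D2. The D4 libraries gave 32.6, 37.5 and 51.0 CPM and the D6 libraries 25.98, 23.1 and 5.41 CPM. The libraries of the 4 days did not overlap. The level at D4 was 2.82-fold lower than at D0 (log2 -1.49 ± 0.26 SE, limma-voom adjusted p = 6.70e-06), and at D6 7.26-fold lower (log2 -2.86 ± 0.37 SE, limma-voom adjusted p = 2.98e-09), which became a log2 of -2.27 without D6 replicate 3, a library with 2 reads. The D2 difference did not pass (log2 -0.71, 95% interval -1.25 to -0.17, limma-voom adjusted p = 0.0810), nor did the step from D2 to D4 (log2 -0.78, limma-voom adjusted p = 0.209). The step from D4 to D6 (log2 -1.37, limma-voom adjusted p = 0.0263) depended on D6 replicate 3 and became -0.79 (limma-voom adjusted p = 0.257) without it. The call of this step was also lost without D4 replicate 3 and after thinning every library to the smallest (log2 -0.69, limma-voom adjusted p = 0.728). It was lost as well with a mapping quality of at least 10 (log2 -1.26, limma-voom adjusted p = 0.232). Of the Apoe reads, 48.4% had a mapping quality under 10, among 4 transcripts with the same coding length.

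Slc1a3 (chromosome 15, 8634124 to 8710764, minus strand) all but vanished at D2 and returned at D4. It gave 68.7, 68.5 and 50.4 CPM at D0. At D2 the libraries held 0, 2 and 0 reads, and a count of 0 allows up to 23.5 CPM in replicate 1 and 15.9 CPM in replicate 3. The D4 libraries gave 49.0, 42.2 and 69.6 CPM, with replicates 1 and 2 below the D0 range and replicate 3 above it, and the D6 libraries 22.3, 20.97 and 16.2 CPM, below both. Pooled reads were 17.7-fold lower at D2 than at D0 (95% counting interval 4.75 to 148), and the difference was called (limma-voom adjusted p = 1.46e-05), as was the return at D4 (limma-voom adjusted p = 0.000181). D4 and D0 did not differ past the threshold (log2 -0.21, 95% interval -0.72 to 0.30). The level at D6 was lower than at D0 (log2 -1.59 ± 0.34 SE, limma-voom adjusted p = 0.000129) and lower than at D4 (log2 -1.38 ± 0.36 SE, limma-voom adjusted p = 0.00701). The latter call was lost without voom weights (log2 -1.35, limma adjusted p = 0.0952) and after thinning every library to the smallest (log2 -1.68, limma-voom adjusted p = 0.0841).

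Dbi (chromosome 1, 120113280 to 120121078, minus strand) moved least. The D0 libraries gave 320, 346 and 359 CPM, the D2 libraries 463, 445 and 499 CPM, the D4 libraries 461, 429 and 436 CPM and the D6 libraries 323, 264 and 355 CPM. D2 and D4 lay above D0 in every library, and D6 overlapped D0. The rise was 1.37-fold at D2 (log2 0.46 ± 0.14 SE, limma-voom adjusted p = 0.0225) and 1.29-fold at D4 (log2 0.36 ± 0.13 SE, limma-voom adjusted p = 0.0261). These were narrow calls. The D2 call was lost without D2 replicate 1 or D2 replicate 3 and the D4 call without D0 replicate 1 or D4 replicate 1. With a barcode confidence of at least 0.9 both were lost (limma-voom adjusted p = 0.0778 and 0.0719). The D2 call was also lost with transcripts in place of genes (limma-voom adjusted p = 0.127), and the D4 call without voom weights (limma adjusted p = 0.0541) and with a mapping quality of at least 10 (limma-voom adjusted p = 0.110). At D6 the log2 difference from D0 was -0.15 (95% interval -0.41 to 0.12), and it was 0.09 when libraries were scaled by their totals only. From D4 to D6 Dbi fell by 0.51 on the log2 scale (limma-voom adjusted p = 0.00731), a call lost without D6 replicate 2 (limma-voom adjusted p = 0.0720).

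**Figure D3:**
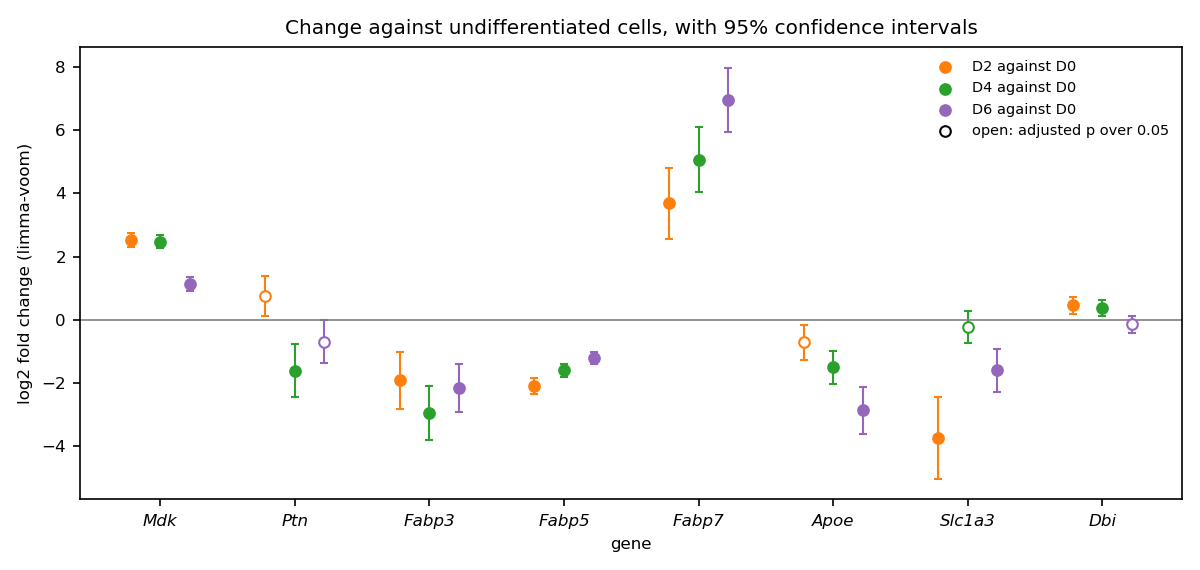
Log2 fold change of each gene at D2, D4 and D6 against D0 from limma-voom, with 95% confidence intervals, filled where the adjusted p was at most 0.05. Mdk and Fabp7 lie above 0 on all 3 days, Fabp3 and Fabp5 below 0, and Slc1a3 leaves the zero line at D2 and D6 but not at D4.

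All 8 genes passed the minimum of 30 reads and were among 9309 genes tested. At D2, 3 were called higher (4.48% of all genes tested were) and 3 lower (6.32% of all). In either direction 10.8% of all were called. At D4, 3 were higher (12.6% of all) and 4 lower (12.7% of all), beside 25.3% in either direction. At D6, 2 were higher (19.4% of all) and 4 lower (18.2% of all), beside 37.6% in either direction. From D2 to D4, 3 rose and 1 fell (2.01% and 1.02% of all), and from D4 to D6, 2 rose and 4 fell (4.44% and 3.92% of all). These genes were chosen with earlier results known, so the counts are a description. Scaling by library totals moved the median of all genes at D6 from 0.02 to 0.26 and the split of calls from 1809 higher and 1690 lower to 2588 and 1162. The split moved likewise at D2 (from 417 and 588 to 720 and 373), at D4 (from 1171 and 1185 to 1537 and 921) and from D4 to D6 (from 413 and 365 to 573 and 257).

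The receptors and partners of midkine and pleiotrophin were measured in the same libraries. Of 24 listed genes 20 were tested, and at D6 6 were higher and 8 lower than at D0, beside 19.4% higher and 18.2% lower over all genes tested. The median log2 change was -0.34 beside 0.02 over all genes. Ptprz1, the receptor phosphatase, had 39 reads in all with 2.81 ± 1.23 CPM in D0 and 17.1 ± 10.96 in D6 cells (SD, n = 3; log2 2.15, limma-voom adjusted p = 0.00506). Alk had no read and its relative Ltk had 1. Itgb1, an integrin subunit of the receptor complex, stood at 114 ± 26.3 CPM at D0 and 123 ± 15.9 at D6 (log2 0.08, limma-voom adjusted p = 0.786), while the integrin subunit Itga6 fell from 75.9 ± 7.12 to 22.8 ± 9.40 CPM (log2 -1.66, limma-voom adjusted p = 3.40e-05). Ncl (nucleolin), a midkine-binding protein of nucleolus and cell surface, was lower, at 1128 ± 173 CPM at D0 and 419 ± 94.4 at D6 (log2 -1.43 ± 0.13 SE, limma-voom adjusted p = 9.71e-14).

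The heparan and chondroitin sulphate carriers split by gene. Of the syndecans, Sdc3, the neuronal form and a pleiotrophin receptor, went from 1 read at D0 to 54.1 ± 7.87 CPM at D6 (59 reads), a 76.1-fold ratio of pooled reads (95% counting interval 13.1 to 3054). Sdc1, Sdc2 and Sdc4 were lower at D6, by log2 changes of -0.91 (limma-voom adjusted p = 0.0207), -1.96 (limma-voom adjusted p = 0.00116) and -2.12 (limma-voom adjusted p = 0.0139). The glypican Gpc2 rose from 5.17 ± 4.52 to 88.1 ± 18.9 CPM (limma-voom adjusted p = 2.98e-09). The glypican Gpc4 fell from 48.05 ± 7.65 to 7.35 ± 7.74 CPM (log2 -2.92, limma-voom adjusted p = 1.03e-05). The proteoglycan Cspg5 went from 1 read at D0 to 64 reads at D6, an 82.5-fold ratio of pooled reads (95% counting interval 14.3 to 3309). The phosphatase Ptprs rose from 36.01 ± 2.69 to 66.5 ± 13.5 CPM (log2 0.86, limma-voom adjusted p = 0.00788). Lrp2 (megalin), an endocytic receptor, fell from 92.7 ± 6.74 to 6.54 ± 3.52 CPM (log2 -3.55 ± 0.48 SE, limma-voom adjusted p = 8.21e-09). The nucleolar protein Npm1 fell from 4483 ± 297 to 1173 ± 142 CPM (log2 -1.96 ± 0.09 SE, limma-voom adjusted p = 5.22e-29).

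Among 33 other lipid carriers, lipoproteins and their receptors 14 were tested, with 7 higher and 3 lower at D6 (19.4% and 18.2% of all genes tested) and a median log2 change of 0.59. Crabp1, a cellular retinoic acid binding protein, stood at 8.002 ± 4.37 CPM in D0 cells, peaked at 1467 ± 90.2 on D2, and was at 841 ± 56.5 on D4 and 439 ± 77.9 on D6 (limma-voom adjusted p = 1.18e-17 at D6). Crabp2, its relative, went from 70.4 ± 15.3 to 2164 ± 183 at D2 and was back to 204 ± 11.2 CPM at D6 (limma-voom adjusted p = 3.20e-09 at D6). The mitochondrial membrane protein Tspo, to which Dbi is known to bind, fell from 50.8 ± 3.34 to 8.47 ± 3.70 CPM (log2 -2.40 ± 0.47 SE, limma-voom adjusted p = 3.30e-05). Apoa1, Apoa2, Apob and Apod had no read.

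The relatives of Slc1a3 were mostly sparse. Of 7 listed genes, the other Slc1 transporters and glutamine synthetase (Glul), 3 were tested, and at D6 none was higher and 2, Slc1a4 and Slc1a5, were lower (19.4% and 18.2% of all genes tested), and the median of the 3 log2 changes was -2.46. Slc1a4, a neutral amino acid transporter, fell from 184 ± 25.9 to 32.9 ± 5.34 CPM (log2 -2.46 ± 0.26 SE, limma-voom adjusted p = 9.49e-12). Slc1a2, the other main glial glutamate transporter, had 24 reads in all and was under the minimum, with none at D0 or D2 and 18.3 ± 6.92 CPM at D6. Glul stood at 64.2 ± 4.999 CPM at D0 and 76.2 ± 11.1 at D6 (limma-voom adjusted p = 0.496).

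Other radial glia and progenitor genes rose more often than they fell. Of 26 listed genes 23 were tested, with 15 higher and 2 lower at D6 (19.4% and 18.2% of all genes tested) and a median log2 change of 1.34. Vim, the intermediate filament vimentin, stood at 377 ± 15.1 CPM in D0 cells and 466 ± 39.6 by D2, and then at 1694 ± 152 on D4 and 1787 ± 169 on D6 (limma-voom adjusted p = 1.29e-26 at D6). The filament gene Nes (nestin) stood at 25.8 ± 10.3 CPM in D0 cells and at 100.4 ± 42.2 by D2, 88.0 ± 20.3 by D4 and 60.6 ± 21.6 by D6 (log2 1.27, limma-voom adjusted p = 0.00148 at D6). Hes5, a target of Notch signalling, went from 2 reads at D0 to 280 ± 65.1 CPM at D6, a 200.4-fold ratio of pooled reads (95% counting interval 55.03 to 1663). Id4, an inhibitor of DNA-binding factors, rose from 8.96 ± 1.71 to 94.1 ± 24.9 CPM (log2 3.18, limma-voom adjusted p = 7.47e-09). Sox2, a progenitor and pluripotency factor, was lower at D6, at 199 ± 23.9 against 263 ± 13.6 CPM (log2 -0.39, limma-voom adjusted p = 0.0287), and with Hopx made up the 2 that were lower. Ptprz1 stood in both this list and that of the receptors.

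**Figure D4:**
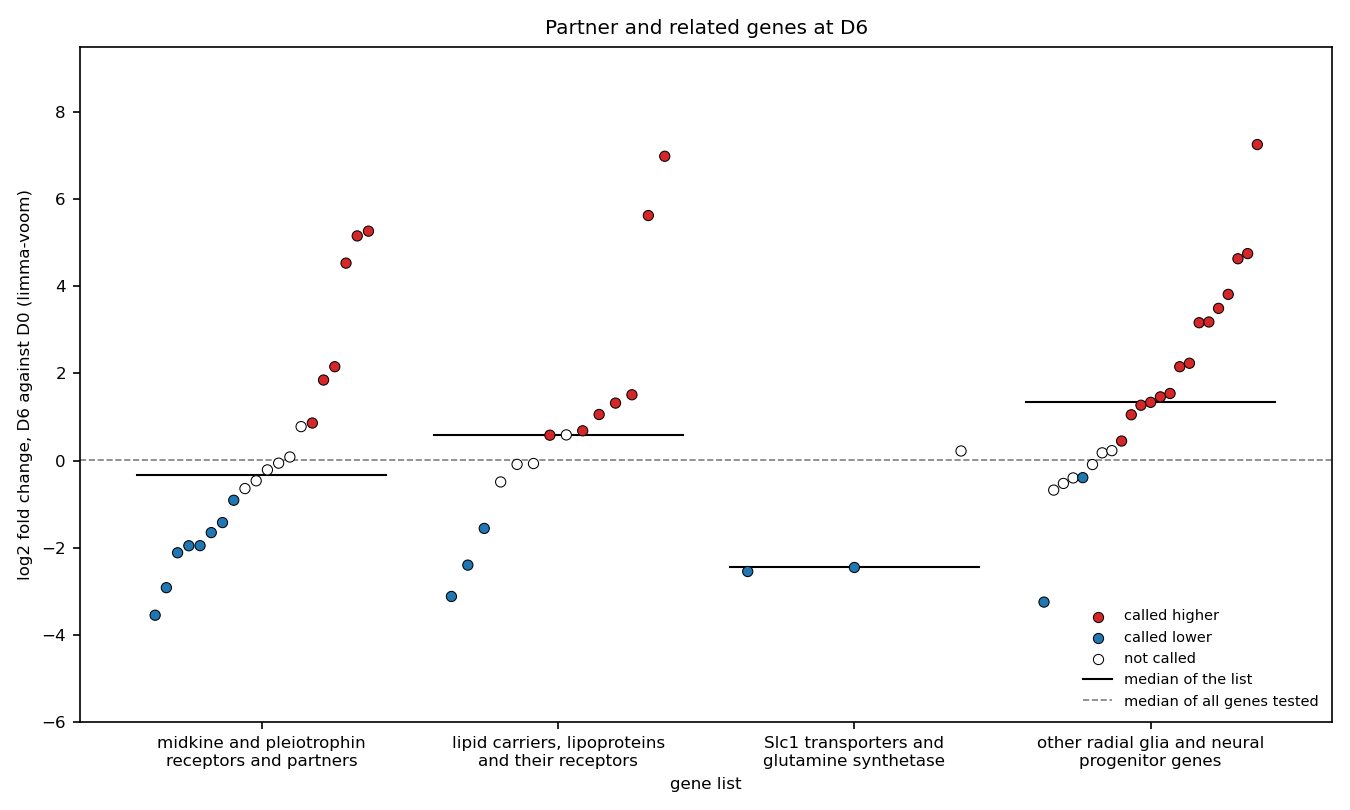
Log2 fold change at D6 against D0 (limma-voom) of every tested gene of the 4 lists, with the median of each list and of all genes tested. The receptors and partners divide around 0, and 15 of the 23 radial glia and progenitor genes were called higher.

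Cell type markers were measured in the same libraries. The summed level of 10 pluripotency markers was 1787 to 2108 CPM in the D0 libraries, up to 16.1 on D2, 0 on D4 and up to 2.71 on D6, with Pou5f1 at 1706 ± 174 CPM at D0. That of 12 neuronal markers was 590.1 to 659 CPM in D0, 399.8 to 606 in D2, 1632 to 1855 in D4 and 3208 to 3485 in D6 libraries. Tubb3 went from 140.4 ± 3.91 to 915 ± 102 CPM and Map2 from 8.17 ± 3.03 to 250.0 ± 17.9 CPM from D0 to D6. Of 10 astrocyte markers, Slc1a2 among them, Gfap had 1 read, Aqp4 and S100b none, and the sum, at D0 mostly Gja1, lay between 167 and 199 CPM in D0 and between 46.1 and 56.8 CPM in D6 libraries. Summed levels stayed at or below 42.7 CPM for 9 oligodendrocyte lineage markers, 16.8 for 12 endoderm markers and 13.5 for 8 microglia and macrophage markers. Those of 10 mesenchyme and smooth muscle markers were 72.2 to 81.9 CPM in D0 and 8.39 to 14.8 CPM in D6 libraries. The part of these cell types in the changes of the 8 genes was not tested.

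The genes whose course over the 12 libraries was most like that of each gene were found by the Pearson r of log2 CPM with 4195 other genes of at least 20 reads per library in some day. The points share libraries, days and depth, and r is a description. For Mdk they were Crabp2 (r = 0.98), the secreted Wnt antagonist Sfrp2 (0.97) and the secreted protein Metrn (0.96). For Fabp7 they were the neuronatin gene Nnat, the surface glycoprotein gene Cd24a and the retinaldehyde reductase gene Dhrs3 (all 0.98). For Fabp5 they were Snrpn (0.98), Bsg (0.96) and S100a10 (0.96), and for Apoe the prostacyclin synthase gene Ptgis (0.97), the scavenger receptor gene Colec12 (0.96) and Ifrd2 (0.95). The best matches were looser for Slc1a3 (Bcor, Ppp1r1a and Sgta, 0.94 each), Dbi (Pclaf 0.94, Rhoc 0.92 and Chchd1 0.91) and Fabp3 (Sinhcaf 0.90, Itgb5 0.89 and Rasgrp2 0.89). Ptn stayed under the read limit and was not ranked.

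The poly(A) tails of Mdk were shorter at later days by point estimate. The median tail was 111, 109 and 109 nt in the D0 libraries and 100.5, 103 and 103 nt at D2. At D4 it was 92.8, 93.0 and 95.3 nt and at D6 98.1, 91.1 and 89.4 nt. All libraries of D2, D4 and D6 lay below all D0 libraries. The difference from D0 was -7.59 nt at D2, -16.0 nt at D4 and -16.8 nt at D6 (95% interval -28.2 to -5.46), with limma adjusted p = 0.503, 0.211 and 0.122. At D6, 0.426% of 3518 genes were called longer and 0.171% shorter (0.597% in all), and Mdk was not among them. The balance of these calls, 15 longer and 6 shorter, turned to 25 and 43 with at least 20 reads per library, 58 and 66 by mean log2 length and 92 and 118 with weights of no upper limit. The Mdk D6 result is sensitive to the weights, with limma adjusted p from 3.59e-05 (weights without an upper limit) to 0.315 (no weights) over all settings tried.

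The tail length classes of Mdk come from the same reads as its medians. Tails from 30 to 90 nt made up 32.8% ± 0.261 of its reads at D0 (SD, n = 3), and the share was 38.8% ± 1.58 by D2, 43.6% ± 0.917 by D4 and 43.0% ± 4.01 by D6. The D6 difference was 10.2 percentage points (95% interval 3.04 to 17.3, limma adjusted p = 0.170). Tails under 30 nt went from 0.999% ± 0.388 to 4.72% ± 1.38 (limma adjusted p = 0.154). Neither difference passed over all genes. By limma, 1.02% of 3518 genes were called higher and 0.313% lower in the share from 30 to 90 nt, and none in the share under 30 nt. At an unadjusted p under 0.05 the split was 186 higher and 275 lower for the share from 30 to 90 nt, whose median difference over all genes was -1.91 percentage points, and 303 higher and 75 lower for the share under 30 nt. Among genes with at least 30 reads, the pooled Mdk tail stood at the 50.3rd percentile at D0 and the 10.8th at D6, while the median over genes was 109 and 115 nt. The median difference at D6 over all genes tested was 3.71 nt.

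**Figure D5:**
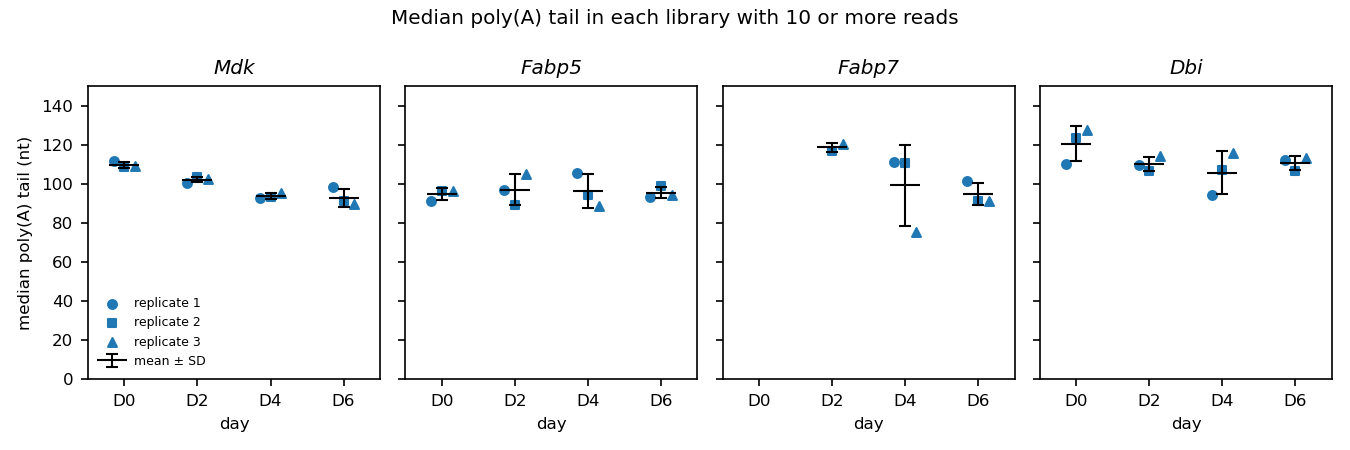
Median poly(A) tail in nt (axis from 0) in each library with at least 10 reads of the gene, with the mean and SD per day. The Mdk libraries go from 109 to 111 nt at D0 to 89.4 to 98.1 nt at D6, and the Fabp5 libraries scatter around 95 nt on every day.

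The median tail of Fabp5 did not shift by more than the spread between libraries. It was 91.3, 96.4 and 96.4 nt in the D0 libraries and 96.7, 89.0 and 105 nt in those of D2. D4 gave 106, 94.2 and 88.5 nt and D6 gave 93.4, 98.9 and 94.0 nt. The libraries of all days overlapped. The difference at D6 was 0.79 nt (95% interval -10.5 to 12.1, limma adjusted p = 0.971), so a change beyond about 12 nt in either direction lies outside the interval. At D4, 0 of 3364 genes were called by limma in median tail, with 120 longer and 245 shorter at an unadjusted p under 0.05, and at D2 0.0556% of 1800 genes were. Fabp5 tails under 30 nt made up 2.80%, 1.34% and 2.11% of the reads in the D0 libraries and 5.38%, 4.14% and 3.73% in those of D6, without overlap, and the difference of 2.34 percentage points (95% interval 0.715 to 3.96) did not pass (limma adjusted p = 0.249). The 99 reads at the downstream Fabp5 end had a pooled median tail of 98.3 nt, and the others 94.4 nt.

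Dbi tails had medians of 110.2, 124 and 127 nt in the D0 libraries and 109, 107 and 114 nt in those of D2. D4 gave 94.0, 107 and 116 nt and D6 gave 112, 106 and 113 nt. D0 replicate 1 overlapped the later days, and the other two D0 libraries lay above all of them. The differences were -10.4 nt at D2, -14.7 nt at D4 and -9.91 nt at D6 (95% interval -22.5 to 2.63), and none passed (limma adjusted p = 0.448, 0.412 and 0.444). Tails under 30 nt went from 0.178% ± 0.309 of the Dbi reads in D0 to 2.86% ± 1.69 in D6 libraries (SD, n = 3), a difference of 2.71 percentage points (95% interval 0.323 to 5.10, limma adjusted p = 0.386). Slc1a3 could be compared at D4 only, where the difference was -2.13 nt with a wide interval (-31.8 to 27.6, limma adjusted p = 0.979).

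Tails within each Mdk transcript were compared from pooled reads, without a test. The median went from 110.1 nt at D0 to 97.0 nt at D6 on Mdk-202, from 105 to 87.0 nt on Mdk-204 and from 104 to 85.7 nt on Mdk-203, but only from 114 to 112 nt on Mdk-201, which had 33 reads at D0 and 74 at D6.

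The other genes had too few reads in some library of D0 or of the day compared with it, and their tails are described without a test. Ptn had long tails, with a median of 156 nt over 136 reads and quartiles at 106 and 196 nt. At D0 its 58 reads gave 153 nt, longer than the median of 98.6% of 5972 genes. The D0 libraries were at 111, 157 and 159 nt, so that replicate 1 (19 reads) lay near the median of 109 nt over all genes. It was 151 nt at D2, 178 nt at D4 and 156 nt at D6. Fabp3 tails had a pooled median of 127 nt in D0 (118 reads) and 102 nt in D6 cells (21 reads), but the D0 libraries were at 109, 135 and 109 nt and the only D6 library with 10 reads at 111 nt. The pooled D0 value lay between those of replicate 2 and the others. Slc1a3 stood at 116 and 119 nt (90 and 22 reads). Fabp7 went from 112 nt at D2 (31 reads) to 104 nt at D4 (164 reads) and 93.4 nt at D6 (619 reads). Its D4 libraries, at 111, 111 and 75.3 nt, overlapped the D6 libraries, at 101, 91.3 and 91.3 nt, and D4 and D6 were not compared in a test. Apoe was among the shorter ones with 92.9 nt in D0 and 91.8 nt in D6 cells (171 and 20 reads). By pooled median the order at D0 ran from Ptn through Fabp3, Dbi, Slc1a3 and Mdk to Fabp5 and Apoe. Library medians of neighbours in this order overlapped, except that every Mdk library lay above every Fabp5 library. Fabp7, with 5 reads at D0, was left out of the order.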

How the data were processed

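Poly(A)-purified RNA from 12 libraries (4 days, 3 biological replicates each) was sequenced directly on MinION or GridION instruments, with the 3 replicates of a day barcoded and run together. Base calling (Guppy), alignment to the GENCODE vM17 transcripts of mm10 (Minimap2 2.20), barcode assignment (Deeplexicon) and tail measurement in nt (Nanopolish) were the authors' work. The deposited read table gives for each alignment the tail length, a mapping quality score and a barcode confidence as a fraction. Its columns were deposited unnormalised, and no count table was used. The other deposited table holds the fold changes, adjusted p-values and calls of the authors' own DESeq2 comparisons and was not used.

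Of 6306434 lines, 69 were malformed and 289260 had no barcode. Of the assigned lines 77.7% were tagged PASS. Reads on mRNA were kept without pseudogene and mitochondrial transcripts, which left 4274320 reads, of which 0.0558% repeated a read. Reads were tallied per gene and library, scaled by trimmed means (30% of ratios and 5% of levels trimmed) and tested with limma-voom (limma 3.58.1, R 4.3.3; pseudocount 0.5 reads, at least 30 reads over the libraries), with Benjamini-Hochberg adjustment and a threshold of 0.05. A fold change is on the log2 scale of reads with this pseudocount and understates the change of sparse genes. Median tails were tested with limma over the 6 libraries of the days compared, for genes with at least 10 reads in each, weighted by reads up to 100. Scripts were tested on simulated data. For shares, exact permutation tests (two-sided) were used, and intervals have a 95% level. A count of 0 allows up to 3 reads.

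The 8 genes, the gene lists and the marker lists were chosen with earlier results of these data known, and their counts support nothing independently. Named were the 8 genes and a fixed set of receptors and markers. Per list, the 3 higher and 3 lower genes with the smallest adjusted p at D6 were also named. They were taken from genes whose mean reached 20 reads a library at D0 or D6. The result of 1 gene that this rule names is not reported here. Apoa1, Apoa2, Apob, Apod, Ltk, Glul, Slc1a5, Gpc4, Itga6, Hopx, Gja1, Aqp4, S100b and the sparse Fabp genes were named after their values were seen. Alternatives were other scalings, filters, weights, read subsets, thinning, transcripts, tail summaries and class limits, a replicate block, and leaving out each library. Transcript coordinates and sequences came from GENCODE M21 on GRCm38 (mm10), where all 18 transcripts with reads had the coordinates of the deposited table.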

Additional observations from a re-analysis of the deposited data

How the results depend on the processing

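Of 528 values of the 8 genes' abundance against D0 under alternative settings, 508 kept direction and call, 17 changed call and 3 turned direction. The cause was not tested in any case. Thinning every library to the smallest ended the calls of Fabp7 at D2 (log2 2.50, limma-voom adjusted p = 0.0552), Fabp3 at D2, Ptn at D4 and Dbi at D2 and D4. It left 3 of the 8 genes called at D2 and 3 from D4 to D6, and turned Ptn at D6 to 0.077 and Slc1a3 at D4 to 0.0036. Library totals turned Dbi at D6 to 0.087 and called Ptn at D2 (log2 0.95, limma-voom adjusted p = 0.0373). Counting transcripts in place of genes turned the step from D2 to D4 of Mdk to 0.22 and of Dbi to 0.078. The step of Mdk from D2 to D4 ran from -0.18 to 0.025 with 1 library left out, and turned without D2 replicate 1 (0.011) or D4 replicate 3. The step of Apoe from D4 to D6 lost its call under 8 settings, with log2 values from -1.48 to -0.69. Thinning moved the D2 share difference from D0 of Fabp3 to 0.885 percentage points and of Fabp5 to -9.31.

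Genes called in abundance numbered 319 at D2, 685 at D4, 1195 at D6, 130 from D2 to D4 and 245 from D4 to D6 after thinning. With a mapping quality of at least 10 they numbered 633 at D2, 2201 at D6 and 394 from D4 to D6, with no low-count filter 1615 at D2, and without voom weights 436 from D2 to D4 and 381 from D4 to D6. Leaving out 1 library gave 646 to 1072 at D2, 1824 to 2378 at D4, 2809 to 3546 at D6, 159 to 305 from D2 to D4 and 476 to 805 from D4 to D6.

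Genes called in tail length depended most on the settings. At D2 there were 3 with at least 20 reads, 0 with at least 5, 2 with a mapping quality of at least 10, 4 by mean log2 length, 0 without weights and 98 with weights of no upper limit. At D4 there were 23 with at least 20 reads, 41 by mean log2 length and 134 with unlimited weights. At D6 there were 68, 124 and 210 under these, 5 with a mapping quality of at least 10 and 1 without weights. Leaving out 1 library gave 0 to 1 at D2 and 1 to 37 at D6. For the share from 30 to 90 nt there were 21 with limits of 35 and 85 nt, 0 without weights and 2 to 10 with 1 library left out. Mdk was called shorter with unlimited weights at D4 (limma adjusted p = 3.20e-05) and D6 (limma adjusted p = 3.59e-05) and by mean log2 length at D6 (-0.24, limma adjusted p = 0.0306). Uncalled tail differences that turned were those of Fabp5 by mean log2 length (-0.037 at D4, -0.016 at D6). With 1 library left out the Fabp5 differences ran from -2.38 to 6.69 nt at D2, -3.27 to 5.29 nt at D4 and -0.939 to 1.79 nt at D6, that of Slc1a3 at D4 from -17.2 to 12.98 nt, and the Dbi difference in the share from 30 to 90 nt from -0.207 to 6.23 percentage points. The latter was -0.371 with limits of 35 and 85 nt.

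Replicate numbers are shared between days. Deviations of same-numbered libraries were weakly correlated at most (18 correlations from -0.128 to 0.167, of which 5 were over 0.1). Those of differently numbered libraries ran from -0.217 to 0.162. The numbers were not taken to pair the libraries, although a weak pairing is not excluded. With a replicate block, 1037, 2056 and 3129 genes were called in abundance at D2, D4 and D6, 334 from D2 to D4 and 631 from D4 to D6, and 0, 0 and 3 in tail length at D2, D4 and D6. The counts of called genes among the 8 did not change. The share alternatives and their block were chosen after seeing the data. Depth limits Ptn, Fabp3 after D0, Slc1a3 at D2 and Fabp7 at D0, where libraries held few reads.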
